A study of Oryza sativa with 6 samples.

Results

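Line 14 and line 2, a pair of A-OsMADS29 lines of rice (Oryza sativa), were set against each other with 4 of the 6 arrays of the series, chosen by title as A-OsMADS29 (line14) replicates 1 and 2 and A-OsMADS29 (line2) replicates 1 and 2. Both lines are given the genotype of an OsMADS29 mutant, and the labels do not spell out the prefix or the kind of alteration. Nucellar projection cells were cut by laser from seeds at 3 days after flowering, and 1-colour Agilent arrays measured their RNA after 2 rounds of amplification. The plants grew in pots in a phytotron, with 12 h of light at 26 °C and 12 h of dark at 18 °C. The 2 arrays of the wild type, cultivar ZH11, of the same age and raised in the same way, stood beside the lines as a description and entered neither the choice of probes nor the test. Each line is a single line. The number of plants or seeds behind an array is not given, so p-values measure the spread between arrays, which may in part be technical.

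OsMADS29 is a MADS-box transcription factor that acts in the maternal tissues of the rice seed. The nucellus is the maternal tissue around the embryo sac, and most of it breaks down while the endosperm grows. The nucellar projection is the part that remains next to the vascular bundle, where nutrients pass from the mother plant towards the endosperm, and it too is broken down later. Independent lines altered in the same gene are compared so that features of a single line can be seen apart from features that lines share.

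All levels below are log2 signals minus the 75th percentile of the array, so that 0 is the 75th percentile, and a difference of 1 is 2-fold. A total of 21756 genes were tested, made up of 21672 loci, 78 microRNA probes and 6 other probes, with 1 probe for each locus. A probe entered where it was well above the local background on both arrays of at least 1 line. Line 2 and the wild type lay on slide 1 and line 14 on slide 2, so line and slide cannot be told apart in any result below. In captured tissue, fewer cells of a type and less RNA per cell cannot be told apart either. The probe names pair no locus with a gene name, and the reference table matched 0 of the locus IDs, so loci are given by ID with no role, and the captured tissue was not checked against marker genes. The locus ID of OsMADS29 was set from general knowledge.

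OsMADS29 (Os02g0170300), the gene altered in both lines, did not differ detectably between them. Its level was -0.27 and 0.89 on the line 2 arrays, against 0.17 and -0.00 on the line 14 arrays. Both line 14 arrays lay between the line 2 arrays, so the lines overlapped. The mean was 0.31 ± 0.83 (SD, n = 2) in line 2, against 0.08 ± 0.12 (SD, n = 2) for line 14, beside wild-type arrays at 0.38 and 0.88. The difference, line 14 minus line 2, was -0.23 (SE 0.47, 95% confidence interval -1.48 to 1.02, adjusted p = 0.999 in limma). The interval reaches from 2.78-fold lower to 2.03-fold higher in line 14. An exact two-sided permutation test over the 4 arrays gave p = 1, and 0.333 is the smallest p that 2 arrays against 2 allow. Of all genes tested, 55.3% had a larger difference in size.

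A second OsMADS29 probe, whose name places it in the 5' untranslated region and coding sequence, gave levels of -4.50 and -3.74 in line 2, against -4.08 and -4.43 in line 14. Its arrays overlapped as well. The difference of -0.13 had a 95% confidence interval of -1.13 to 0.87 (adjusted p = 0.999 in limma). The direction of the first probe rested on line 2 replicate 2, without which line 14 was higher by 0.36.

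Across the transcriptome, arrays of different lines were about as far apart as the replicate arrays of 1 line. Across the 21756 genes, which share each array and are no replicates, Pearson's r was 0.946 for the line 2 pair and 0.957 for the line 14 pair. The 4 pairs that joined an array of each line had r of 0.941 to 0.955. The root-mean-square log2 difference was 0.935 within line 2 and 0.831 within line 14. Between the lines it was 0.850 and 0.857 for line 2 replicate 1, and 0.979 and 0.923 for line 2 replicate 2. The pair of arrays with the smallest share of genes over 2-fold apart, 12.9%, was line 2 replicate 1 with line 14 replicate 1, against 14.9% within line 2 and 15.5% within line 14. The wild-type arrays stood further from each other, at r = 0.915 and 25.7% of genes over 2-fold apart.

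The spread of every pair was smaller at brighter genes. With the genes ranked by mean level into 5 bins of about equal size, in the dimmest bin the root-mean-square difference was 1.39 to 1.58 between the lines, 1.47 within line 2 and 1.30 within line 14. In the brightest bin it was 0.364 to 0.516 between the lines, 0.479 within line 2 and 0.482 within line 14. The within-line values thus lay inside the range of the pairs between lines in both bins, except that line 14 was below it in the dimmest.

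**Figure D1:**
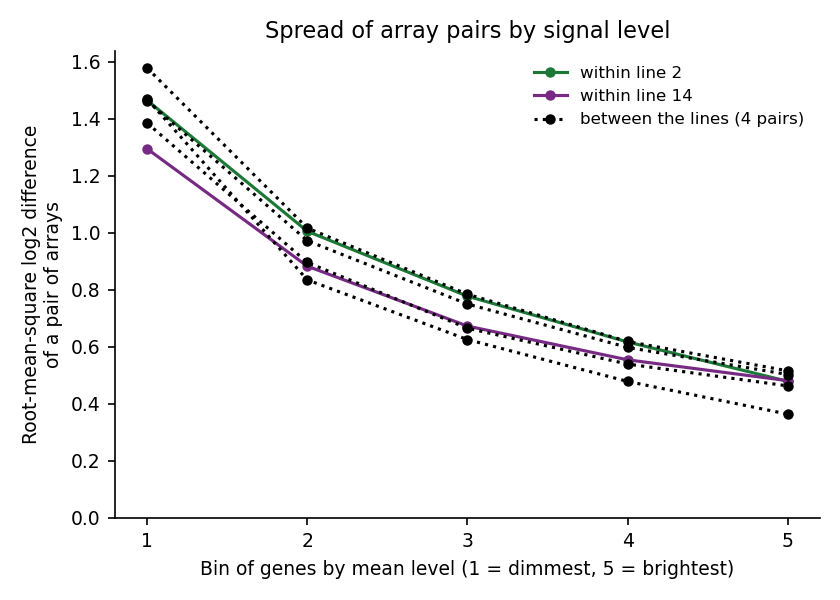
Root-mean-square log2 difference (y axis) of each pair of line arrays in 5 bins of the genes by mean level (x axis, 1 is the dimmest), with solid lines for pairs within a line and dotted lines for the 4 pairs between lines. Pairs between the lines run among the pairs within lines, from 1.39 to 1.58 in the dimmest bin to 0.364 to 0.516 in the brightest.

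No gene was called different between the lines. Of the 21756 genes, 0% had an adjusted p under 0.05 in limma, and the smallest adjusted p was 0.121. An unadjusted p under 0.05 was reached by 1035 genes, 4.76% of those tested, with 414 higher and 621 lower in line 14. The median difference over all genes was 0.00046, and the central range from the 5th to the 95th percentile was -0.99 to 0.88. The unadjusted 95% confidence interval of a gene reached 0.93 to either side of its difference at the median. No difference of any size passed the adjusted threshold with 2 arrays a line.

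The larger differences are therefore given as descriptions, without a call. The arrays of the lines did not overlap at 6884 genes, 31.6% of those tested, with 3281 (15.1%) higher and 3603 (16.6%) lower in line 14. Of these, 335 genes, 1.54%, were also at least 4-fold apart, with 123 (0.565%) higher and 212 (0.974%) lower in line 14. Most were dim. From the dimmest to the brightest bin, 255, 45, 25, 7 and 3 of the 335 genes were found. Requiring every line array to be well above background left 96 genes, 41 higher and 55 lower, or 0.479% of the 20029 genes with that property. Under normexp background correction with quantile normalization the count was 94, with 27 higher and 67 lower. Leaving out any 1 array, which also loosens the requirement of no overlap, gave 753 to 1025 genes. More of them were lower than higher in line 14 only without line 2 replicate 2, at 136 higher and 638 lower.

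**Figure D2:**
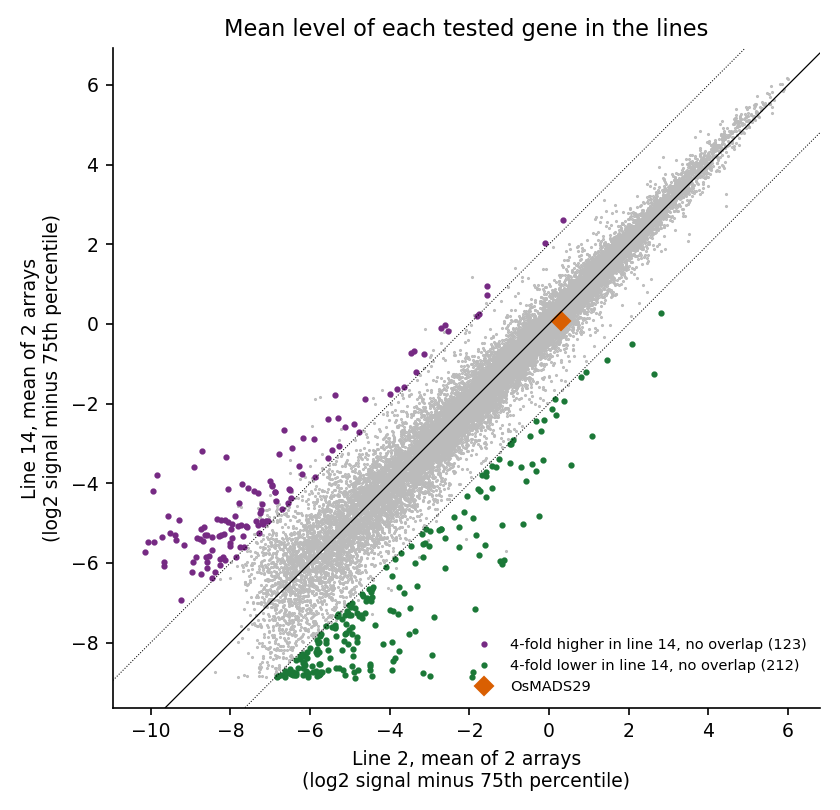
Mean level of each of the 21756 tested genes in line 2 (x axis) and line 14 (y axis), each a mean of 2 arrays in log2 signal minus the 75th percentile. Coloured points are the 123 genes higher and 212 genes lower in line 14 that are at least 4-fold apart with no overlap of the arrays, most of them at low levels, the solid line is equality, the dotted lines are 4-fold, and the diamond is OsMADS29.

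Other probes at the same loci mostly gave the direction of the probe chosen. Among the 4-fold loci, 38 had further kept probes, 63 in number. Of these 63, 61 had the same direction, 56 of them with a difference over 2-fold and 46 over 4-fold, and their median size was 2.38 on the log2 scale. Over all 9958 further kept probes, r between their difference and that of the chosen probe was 0.639, a description across probes of the same RNA. Some of the 4-fold loci cannot be taken as separate measurements: 24 of them carried probes of only 8 transcript accessions, shared among loci. Whether the probes tell such loci apart was not tested.

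Among genes well above background on all 4 line arrays, the 15 with the widest gap between the lines were taken in each direction. The gap is the lowest array of the higher line minus the highest array of the lower line. It was 1.67 to 2.69 in the genes higher in line 14, with adjusted p from 0.348 to 0.912 in limma. In the genes lower in line 14 it was 1.82 to 3.63, with adjusted p from 0.239 to 0.934. The wild-type mean lay nearer to line 2 in 6 of the 15 higher genes and in 12 of the 15 lower genes.

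The leading locus among those higher in line 14 was Os01g0794400, on chromosome 1. It was at -6.60 and -5.77 in line 2, at -3.07 and -2.63 in line 14, and at -6.26 and -5.15 in the wild type. The wild-type and line 2 arrays overlapped each other and lay below both line 14 arrays. The difference of the lines was 3.33 (SE 0.41, adjusted p = 0.356 in limma), or 10.1-fold. The next was Os12g0508400, on chromosome 12, at -3.63 and -3.13 in line 2, at -0.71 and -0.66 in line 14, and at -2.33 and -2.38 in the wild type. Here the wild-type arrays lay between the lines, above both line 2 arrays and below both line 14 arrays. The difference of the lines was 2.69 (SE 0.32, adjusted p = 0.348 in limma), or 6.47-fold.

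In the other direction the widest gap was at Os01g0899700, on chromosome 1. It was at 1.05 and 1.10 in line 2, at -3.02 and -2.58 in line 14, and at 1.79 and 0.91 in the wild type. The line 2 arrays lay between the wild-type arrays, and both line 14 arrays were far below them. The difference was -3.88 (SE 0.31, adjusted p = 0.239 in limma), or 14.7-fold. The next, Os01g0822900 on the same chromosome, was at -0.02 and -1.30 in line 2, at -5.51 and -4.54 in line 14, and at 3.86 and 3.91 in the wild type. The 3 groups separated fully, with wild type highest and line 14 lowest. The difference between the lines was -4.37 (SE 0.59, adjusted p = 0.426 in limma), or 20.7-fold. All 7 kept probes of this locus had the same direction, from -5.57 to -4.37.

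**Figure D3:**
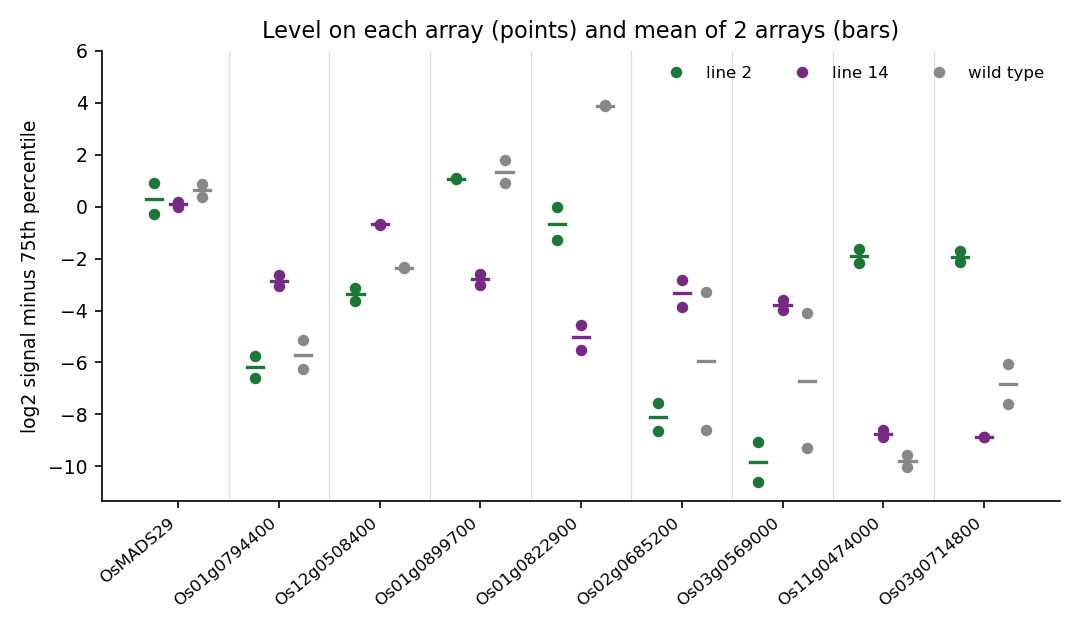
Level on each array (points) and mean of 2 arrays (bars) in log2 signal minus the 75th percentile (y axis) for OsMADS29 and the 8 loci named in the text (x axis), in line 2, line 14 and wild type. OsMADS29 overlaps between the lines, while each of the other 8 loci separates them, and at Os01g0822900 both lines lie below the wild-type arrays at 3.86 and 3.91.

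Some genes were well above background on both arrays of 1 line and on neither array of the other. Line 14 alone showed 28 such genes (0.129%) and line 2 alone 532 (2.45%). The lowest level of a single spot well above background, taken here as the limit of the array, was -7.18 and -8.67 in line 2, against -6.53 and -6.57 in line 14. The line 14 arrays thus had the higher limit by spot, and 72.8% of probes on each of them passed, against 75.5% and 79.7% in line 2. With 1 common limit for the 4 arrays, chosen after the data were seen and set at -6.53, the counts were 146 for line 14 alone and 142 for line 2 alone. At least 4-fold apart with no overlap were 26 of the 28 genes of line 14 alone and 121 of the 532 of line 2 alone. The number of genes in 1 line only lay between 1010 and 1976 when any 1 array was left out, which leaves fewer arrays to pass.

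Detection in the wild type, which shared its slide with line 2, is given beside these counts. Both wild-type arrays detected 214 of the 532 genes of line 2 alone, 1 of them detected 191 and neither detected 127. Of the 28 genes of line 14 alone, both wild-type arrays detected 2, 1 detected 10 and neither detected 16. The part of slide and detection limit in these counts was not tested.

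The brightest locus of line 14 alone was Os02g0685200, on chromosome 2, at -2.81 and -3.87 there. It was not well above background in line 2, at -7.57 and -8.63, and the wild-type arrays were apart, at -8.61 and -3.27. Line 14 was 23.6-fold higher with each dim array set no lower than its limit by spot (adjusted p = 0.348 in limma). Such a fold over the limit is a ratio of means and leaves out the spread between arrays. It is no strict lower bound, since a probe that is not well above background can read above the limit. The limits differ between the lines, so these folds cannot be compared across the 2 directions. The next was Os03g0569000, on chromosome 3, at -4.0 and -3.61 in line 14, at -9.05 and -10.61 in line 2, and at -9.30 and -4.11 in the wild type. At both loci wild-type replicate 2 was well above background and replicate 1 was not. The fold over the limit was 17.4 at Os03g0569000 (adjusted p = 0.330 in limma). In the 10 brightest genes of this set the fold over the limit ran from 5.94 to 23.6.

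In line 2 alone, the brightest loci were Os11g0474000 and Os03g0714800, which also had the smallest adjusted p of all genes tested. Os11g0474000, on chromosome 11, was at -2.18 and -1.64 in line 2, at -8.60 and -8.88 in line 14, and at -9.55 and -10.01 in the wild type. Line 2 stood alone, and no array of line 14 or the wild type was well above background. Its fold over the line 14 limit was 24.9 (adjusted p = 0.121 in limma). Os03g0714800, on chromosome 3, was at -2.12 and -1.73 in line 2, at -8.85 and -8.89 in line 14, and at -7.61 and -6.07 in the wild type. Both wild-type arrays lay below line 2, and neither line 14 array was well above background, nor was wild-type replicate 1, so line 14 and the wild type have no order here. The fold of line 2 over the line 14 limit was 24.7 (adjusted p = 0.121 in limma). Over the 10 brightest genes of line 2 alone the fold over the limit ran from 6.80 to 24.9.

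The wild-type arrays, which took no part in choosing the 335 genes, were set beside them to see which line they resembled. In 147 of the 335 genes neither array of 1 line was well above background. All 4 line arrays were well above background in only 96 of the 335. In the remaining genes nearness rests in part on background readings. Of the 123 genes higher in line 14, the wild-type mean was nearer to line 2 in 63 and to line 14 in 60. Of the 212 genes lower in line 14, it was nearer to line 2 in 117 and to line 14 in 95. Among the genes well above background on all 4 line arrays, the picture differed by direction: of the 41 higher in line 14 the wild type was nearer to line 14 in 29, and of the 55 lower in line 14 it was nearer to line 2 in 39. In both of those sets the wild type was thus mostly on the side of the brighter line. The wild-type arrays lay together on the side of 1 line in 31 of those 41 genes, 22 with line 14 and 9 with line 2. They did so in 30 of those 55 genes, 25 with line 2 and 5 with line 14.

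Signal at the ends of transcripts moved with the lines. At 385 loci with probes at both the 5' and the 3' end, the median of 5' minus 3' signal, centred over the arrays, was 0.31 and 0.30 on the line 2 arrays. It was -0.19 and -0.10 on the line 14 arrays, and -0.33 and 0.07 on the wild-type arrays. Line 14 thus had relatively less 5' signal than line 2, without overlap, and the wild-type arrays spanned the line 14 values. Genes measured by a probe in the 5' untranslated region and coding sequence, 169 in number, had a median difference of -0.13, against 0.01 for the 15572 genes measured in the coding sequence and 3' untranslated region. Of the former, 0 were at least 4-fold higher and 3 lower in line 14 without overlap, together 1.78%. Of the latter, 75 were higher and 127 lower, together 1.30%. The share over all genes was 1.54%. The part of 5' signal in the differences between the lines was not tested beyond these values.

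**Figure D4:**
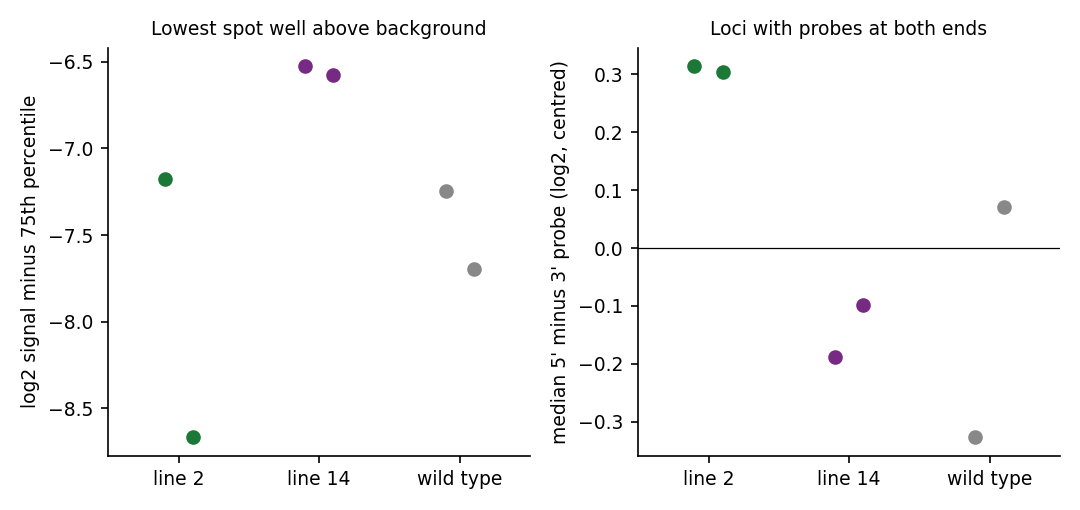
Lowest level of a single spot well above background on each array (left, log2 signal minus the 75th percentile) and median 5' minus 3' signal at 385 loci (right, log2, centred over the arrays), with 1 point per array for line 2, line 14 and wild type. Line 14 has the highest of these levels by spot, at -6.53 and -6.57, and 5' minus 3' values below both line 2 arrays.

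The evidence behind a gene model and its place on the chromosomes gave further descriptions. Genes backed by a full cDNA made up most of those tested, and 1.31% of them were at least 4-fold apart without overlap. The share was 1.99% of predicted genes with an expressed sequence tag and 2.81% of genes that were predicted only. Detection in 1 line only ran in the same order, at 1.81%, 4.72% and 4.93%. By chromosome, the share of loci at least 4-fold apart ran from 1.09% on chromosome 2, which carries OsMADS29, to 2.01% on chromosome 4.

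Some of the 4-fold loci were neighbours, with 20 loci in pairs that shared a direction. Over all genes tested, 0.565% were 4-fold higher without overlap and 0.974% lower in line 14. The count of pairs was not tested against these shares. Among 21660 pairs of tested loci next to each other in the order of their IDs, 11 pairs were both 4-fold apart in the same direction, 10 of them lower in line 14, and 2 pairs in opposite directions. There were 2 sets of 3 loci in a row, both lower in line 14. On chromosome 4 the differences were -3.95 to -3.08 (adjusted p from 0.690 to 0.842 in limma). On chromosome 6 they were -4.19 to -2.39 (adjusted p from 0.797 to 0.999 in limma). The locus at -4.19 (SE 2.12) had line 2 arrays far apart, at -1.31 and -7.69, against -8.79 and -8.59 in line 14. At 3 of these 6 loci neither line 14 array was well above background, so that their differences rest on readings with no measured level there. The sets cannot be taken as separate, since a locus of the chromosome 4 set and a locus of the chromosome 6 set carry probes of the same accession.

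MicroRNAs are short RNAs cut from hairpin precursors that guide the silencing of target transcripts, and in plants most conserved families act on transcription factors of development. They were the only group of genes that the probe names identified. The names mark each probe as the mature microRNA or as sequence on its 5' or 3' side, and the arrays cannot tell whether signal at a mature probe comes from the mature RNA or its precursor. Of 510 microRNA probes, 78 in 23 families passed the filter, namely 34 on the 3' side, 28 on the 5' side and 16 mature. The probes that were well above background numbered 86 and 144 on the line 2 arrays and 80 on each line 14 array.

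Over the 78 probes the median difference was 0.10, with 47 above 0 and 31 below, beside 0.00046 for all genes. The arrays of the lines did not overlap at 26 of them, or 33.3%, close to the 31.6% of all genes, with 16 higher and 10 lower in line 14. No microRNA probe was called, 7 (8.97%) had an unadjusted p under 0.05, beside 4.76% of all genes, and the smallest adjusted p was 0.524 in limma. The 16 mature probes had a median of 0.29, with 14 above 0, and the 62 flanking probes a median of 0.05, with 33 above 0. Of the 16 mature probes, 6 belonged to miR160, whose members share nearly the same mature sequence and cannot be taken as separate. At 19 precursors both sides were measured, and 14 of these had both differences in the same direction.

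The families are described by what they are known to target. The miR164 family, which targets NAC transcription factors, had a median of 0.93 over 5 probes. Of these, 4 were higher in line 14 without overlap, beside 15.1% of all genes. Both sides of miR164f are among the 4, and the family was not tested as a set. The 3' probe of miR164e was at -6.04 and -8.56 in line 2, against -5.75 and -4.34 in line 14, with wild-type arrays at -9.06 and -9.81. Its line 2 arrays lay far apart, and the lines were separated only narrowly. The difference was 2.26 (SE 0.99, adjusted p = 0.999 in limma). For miR164f, the 3' probe read -5.82 and -6.06 in line 2, against -4.83 and -5.18 in line 14, and the 5' probe -7.32 and -7.47 against -6.31 and -6.42. Both sides were higher in line 14 by close to 1 on the log2 scale, at 0.93 and 1.03. However, the 5' probe was well above background on only 1 of the line 2 arrays.

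The miR169 family, which targets subunits of the NF-Y transcription factors, had a median of 0.16 over 8 probes, and its largest differences were at miR169o. The 3' probe of miR169o was at -8.89 and -9.57 in line 2, at -7.15 and -6.72 in line 14, and at -7.99 and -9.90 in the wild type. It was well above background on only 1 of the line 2 arrays, by 0.5 or more of its spots, and the mean of its spots can lie under the limit by spot given above. The difference was 2.30 (SE 0.38, adjusted p = 0.524 in limma), and the 5' probe gave 1.64 (SE 0.31, adjusted p = 0.594 in limma). Levels of the 5' probe were -7.17 and -6.89 in line 2, against -5.58 and -5.21 in line 14. Both sides of this precursor were thus higher in line 14 on every array.

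Both probes of miR171c, of a family that targets GRAS transcription factors, were lower in line 14. The 5' probe was at -5.98 and -4.28 in line 2, at -8.04 and -6.58 in line 14, and at -4.54 and -5.46 in the wild type. Neither line 14 array had it well above background, and the wild type lay in the range of line 2. The line 2 mean was 2.67-fold above the line 14 limit (adjusted p = 0.999 in limma). The 3' probe was at -6.34 and -4.63 in line 2, against -8.28 and -6.67 in line 14. Its line 2 mean was 2.09-fold above that limit, and the interval of -4.15 to 0.18 included 0 (adjusted p = 0.999 in limma). The miR172 family, which targets AP2-type transcription factors, was lower in line 14 at both sides of miR172b. Neither line 14 array was well above background at either side. Unlike at miR171c, the wild-type arrays lay below both line 2 arrays. They were at -9.08 and -9.60 on the 5' probe and at -9.26 and -7.82 on the 3' probe. The line 2 mean was above the line 14 limit by 1.11-fold at the 5' probe and 1.69-fold at the 3' probe. Line 2 replicate 2, at -6.66 on the 5' probe, lay under that limit. Both intervals of the difference included 0, at -3.22 to 0.45 and -3.92 to 0.18 (adjusted p = 0.999 in limma for both).

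The 3' probe of miR414 had the largest difference of the 78. It was at -4.63 and -4.62 in line 2, at -2.68 and -1.09 in line 14, and at 0.14 and -3.02 in the wild type. Both line 14 arrays exceeded both line 2 arrays, and the wild-type arrays lay on either side of line 14. The difference was 2.74 (SE 0.59, adjusted p = 0.678 in limma), or 6.68-fold, while the 5' probe and the mature probe of miR414 differed by 0.55 and 0.41. The mature probe of miR394, whose known target is an F-box protein gene, was at -7.90 and -7.35 in line 2, against -6.59 and -6.46 in line 14. This probe was well above background on only 1 of the line 2 arrays, and its difference was 1.10 (SE 0.33, adjusted p = 0.971 in limma). The mature probe of miR408, a family that targets copper proteins, was at -4.24 and -4.67 in line 2 and -3.67 on both arrays of line 14. Its difference was 0.79 (SE 0.30, adjusted p = 0.999 in limma). The brighter 3' probe of miR408 differed by 0.29, and its arrays overlapped between the lines.

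Other families with several probes had medians on either side of 0. The miR156 family, with 2 probes, had a median of 0.59, and miR159, with 2 probes, a median of -0.34. The miR160 family, which targets auxin response factors, had 17 probes with a median of 0.28. Of these, 2 did not overlap, 1 in each direction, beside 31.6% of all genes. The lower one had neither line 14 array well above background. The miR166 family, which targets HD-ZIP III transcription factors, had 12 probes with a median of -0.06 and a range of -0.56 to 0.39. The flanking probes of miR168a, whose target is the silencing protein ARGONAUTE1, differed by -0.33 on the 3' side, without overlap, and by -0.25 on the 5' side, with overlap. Neither line 14 array had the mature probe well above background, and no fold is given for it. The 4 probes of miR162, which targets the processing enzyme DICER-LIKE1, lay between -0.10 and 0.13. The probes of miR164f, miR394, miR408, miR172b, miR156, miR159, miR160, miR166, miR168 and miR162 were picked for the text after their values were seen.

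**Figure D5:**
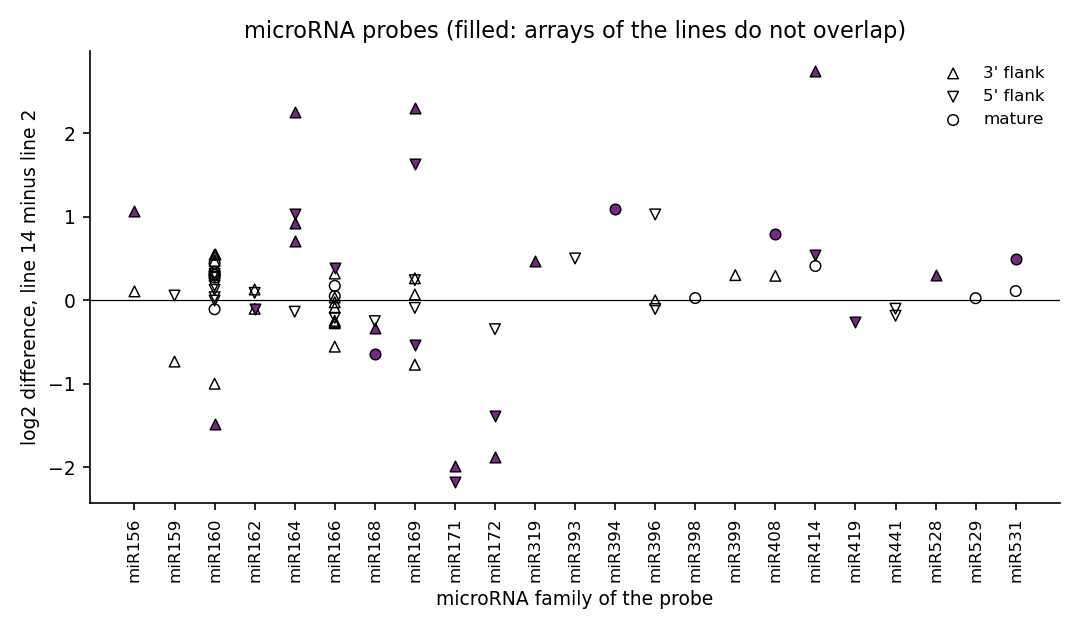
Difference of line 14 minus line 2 (y axis, log2) for the 78 microRNA probes that passed the filter, by family (x axis), with triangles for probes on the 3' and 5' side and circles for mature probes. Filled symbols are the 26 probes whose arrays do not overlap between the lines, and they reach from -2.18 at miR171c, whose line 14 arrays were not well above background, to 2.74 at miR414.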

How the data were processed

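Signals were extracted by the authors with Feature Extraction 10.7.3.1 from Cy3-labelled arrays (Agilent design 15241), per the file headers. The deposited processed signal is a linear intensity, with background subtracted array by array and no scaling across arrays. Quality flags were deposited as 0 or 1. The deposited value table of the authors holds log2 values. Its 6 columns, once sorted, differ by at most 0.000577, as after quantile normalization, with a median of 10.4 in each, and correlated with the log2 spot signal at 0.998 or above. How it was made is not stated in the labels or headers.

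Of 45151 spots per array, 1417 control spots and the outlier spots (0.101% to 0.183% per line array) were left out, as were 59 probes that the design names as controls. No spot was saturated. Log2 signals minus the 75th percentile of the array were averaged over the spots of each probe. A probe was kept where at least 0.5 of its spots were well above background on both arrays of at least 1 line, 31714 of 42418 probes. At 6361 loci with several kept probes the brightest was used. The 4 line arrays were fitted in limma 3.58.1 under R 4.3.3, with 2 residual and 2.59 prior degrees of freedom, two-sided, with Benjamini-Hochberg adjustment at 0.05. The code was tested on simulated data. With 2 arrays a line, their number limits the precision.

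The comparison, gene lists and named loci were chosen with earlier results of these data known. Named were OsMADS29, and for each direction the 2 leading loci by gap and the 2 brightest of those detected in 1 line only, and the 4 microRNA probes with the largest differences. Of 31 gene lists, 30 rest on gene descriptions, which the probe names lack, and the reference table of 39387 genes matched 0 of the IDs, so only the microRNA list was formed. The alternatives were other background corrections and scalings, the authors' table, the filter, the choice of probes, the design, the threshold and each array left out. Since a mean spot signal is not among the columns used here, normexp (offset 50) took the median signal. Replicate numbers pair no samples here: deviations of same-numbered arrays from their line means correlated at 0.078 over genes.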

Additional observations from a re-analysis of the deposited data

Results flagged for a closer look

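At 1 of the named loci the lines stood on opposite sides of the wild type on every array, all of them well above background. Os12g0508400 was lower than both wild-type arrays in line 2 and higher than both in line 14, with a difference of 2.69 between the lines (adjusted p = 0.348 in limma). The opposite moves away from the wild type were not tested as such, and the difference between the lines did not pass the threshold.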

How the results depend on the processing

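No gene was called in any of the 16 alternative settings, with a smallest adjusted p of 0.0827 in limma with all 6 arrays fitted, and unadjusted p under 0.05 at 702 to 1688 genes. The replicate block also gave 0 calls, with 1149 genes at an unadjusted p under 0.05 and a difference of -0.23 for OsMADS29 (adjusted p = 0.985 in limma). OsMADS29 kept its direction in 12 of 13 settings. Among the 12, the 3' probes, replicate block, all 6 arrays and intensity trend left its probe and line means unchanged. Its direction could not turn in those settings, and another of the 12 was its second probe. Leaving out 1 array gave -0.81 to 0.36, the last without line 2 replicate 2. The count of 335 genes at least 4-fold apart was 94 with normexp and quantile normalization (87 of them shared), 876 with no filter on dim probes (659 higher, 217 lower), 96 with all 4 arrays well above background, 206 with probes at the 3' end only and 1366 at 2-fold. It was 856 (551 higher, 305 lower) and 774 (136, 638) without line 2 replicates 1 and 2, and 753 (429, 324) and 1025 (540, 485) without line 14 replicates 1 and 2, so the excess of lower genes held in 1 of these 4. Split by direction, it was 126 higher and 269 lower after quantile normalization, 138 and 196 after median scaling, and 128 and 272 in the authors' deposited table. The 560 genes found in 1 line only became 264 with probes at the 3' end, and, by alternatives added after the data were seen, 288 with 1 common limit and 147 when also 4-fold apart. They numbered 1976 and 1010 without line 2 replicates 1 and 2, and 1110 and 1285 without line 14 replicates 1 and 2. The microRNA median was 0.014 to 0.38 with 1 array left out, the highest without line 14 replicate 1. Filters and probe choices alter which genes are counted, and for the other changes the cause was not tested. Signal near background limits the dim genes.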
